A study of Schizosaccharomyces pombe with 2 samples.

Results

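The 35 genes described here encode proteins of the kinetochore and of centromeric chromatin in the fission yeast Schizosaccharomyces pombe. They were chosen by name: the fta and mis genes, sim4, mal2, the centromere proteins cnp1, cnp3 and cnp20, and genes of the Mis12, Ndc80 and DASH complexes. Of the 35, 32 had a spot whose name matched the gene's symbol, synonym or systematic identifier, out of 4868 gene-like names. These 32 were measured on both arrays, as were 4766 genes in total. For mis15, dad3 and spc19 no spot name matched, and they were not analysed here. The gene fta5 was found under its systematic identifier and has pfl8 as its current symbol.

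Total RNA of a strain labelled pob3 was compared with RNA of a strain labelled wt (wild type) on 2 spotted arrays of open reading frames. Each array received both RNAs. On replicate 1 pob3 RNA carried the dye Cy5 and wild-type RNA Cy3, and on replicate 2 the dyes were swapped. The labels give no pob3 allele, genetic background, growth stage or number of cultures, so the spread that p-values rest on is that of 2 arrays and could be technical rather than between cultures.

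The kinetochore is the protein assembly that ties a chromosome to spindle microtubules. Its foundation is chromatin in which the histone H3 variant Cnp1 (CENP-A) replaces H3. On it sits an inner layer built from the Mis6, Sim4 and Mal2 proteins, and on that an outer layer, the Mis12, Spc7 and Ndc80 proteins, which grips the microtubule. In fission yeast the DASH complex strengthens that grip. Pob3 belongs to FACT, a complex that takes histones off and puts them back as polymerases pass, and the series concerns FACT at centromeric heterochromatin. The arrays carry open reading frames, so the values below are levels of transcripts that encode kinetochore proteins and say nothing of the proteins at centromeres.

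A ratio below is the log2 of pob3 over wild-type signal after normalisation: 1 is a doubling and -1 a fall to 50%. Means are over the arrays, with the SD (n = 2), and their precision is limited by having so few arrays. The test was limma's moderated test over all 4766 genes with Benjamini-Hochberg adjustment, and a gene passed at an adjusted p under 0.05. Intervals are limma's 95% intervals of the mean, not adjusted for the number of genes. Depending on dye and spot file, 96.6% to 98.7% of gene spots exceeded background, against 1.33% to 7.02% of empty and buffer spots. The pob3 transcript itself had ratios of -1.40 and -1.12 on the arrays (mean -1.26 ± 0.20, adjusted p = 0.0612), lower on both but short of the threshold. Across all genes the arrays correlated at a Pearson r of 0.155, a description across genes, which are not independent replicates. This r was -0.073 with median centring and 0.25 with print position medians subtracted.

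A single kinetochore gene, fta6, rose in pob3, by 1.55 ± 0.50 on the log2 scale, which is 2.93-fold (adjusted p = 0.0353, interval 0.95 to 2.15). Its product belongs to the group of Fta proteins that were found bound to Sim4 and Mal2 in the inner kinetochore. The other 31 measured genes did not pass, and 0 fell, by limma. Over all genes 25 of 4766 (0.525%) passed, 21 of them higher (0.441%) and 4 lower (0.0839%), and 1 of 32 is 3.12%, from a single gene. At an unadjusted p of 0.05, 1 kinetochore gene was past the threshold (fta6), or 3.12%, against 7.41% of all genes. The rise of fta6 ended as a call with a background offset of 10 (1.57, adjusted p = 0.0763) and with median centring (1.56, adjusted p = 0.457), where 0 of 4766 genes passed and 174 had an unadjusted p under 0.05. Its adjusted p lay between 0.000199 and 0.457 over 11 alternatives.

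The raw signals behind the fta6 ratios were as follows. On replicate 1 the median brightness of its duplicate spots was 11298 and 8995 in the pob3 channel (Cy5) and 1658 and 1211 in the wild-type channel (Cy3). On replicate 2 it was 9289 and 7111 in the pob3 channel, now Cy3, and 2935 and 2617 in the wild-type channel, now Cy5. Cy5 was the brighter channel for each kinetochore gene spot on replicate 1, so raw brightness gives no direction there, and fta7, mis12 and nnf1 also had the brighter pob3 channel on both arrays. The direction for fta6 therefore rests on the normalised ratios. After normalisation the spots gave 1.17 and 1.22 on replicate 1 and 1.98 and 1.83 on replicate 2. The array means were 1.19 and 1.91, that is 2.29-fold and 3.75-fold, so the size differed more between the arrays than between the spots of an array. By its mean fta6 ranked 15 of the 4766 genes. It was also the single kinetochore gene past 2-fold on each array with the same sign, against 36 of all genes higher (0.755%) and 11 lower (0.231%). Its neighbours on the chromosome in the reference gene order, the pheromone receptor gene mam2 and the actin-related gene arp2, had 0.061 ± 0.19 and 0.28 ± 0.29 (adjusted p = 0.970 and 0.861).

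**Figure D1:**
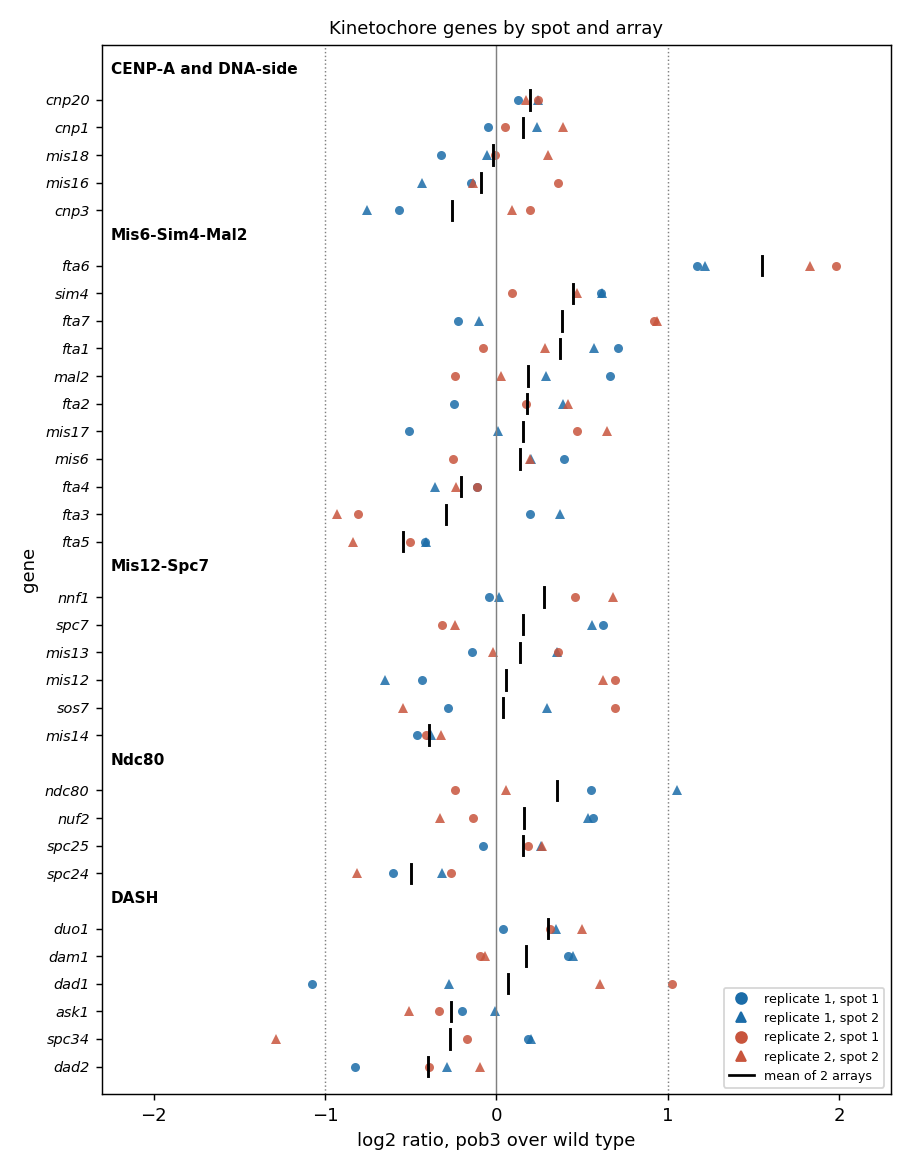
Log2 ratio of pob3 over wild type (x axis) of the 32 measured kinetochore genes (y axis, grouped by complex), with 1 point per spot and array and a black bar at the mean of the 2 arrays. Dotted lines mark 2-fold. The 4 spots of fta6 lie between 1.17 and 1.98, above every spot of the other genes, of which the highest is a spot of ndc80 at 1.05 on replicate 1.

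Centromeric chromatin proteins and their loaders had 5 measured genes, and 0 passed. The transcript of cnp1, the CENP-A histone itself, gave -0.048 and 0.24 on the spots of replicate 1 and 0.048 and 0.39 on those of replicate 2. Its array values of 0.095 and 0.22 were both slightly above 0, and the mean of 0.16 ± 0.087 did not pass (adjusted p = 0.931). The interval, -0.40 to 0.71, leaves out a doubling or a fall to 50%, on a spread pooled mostly from other genes. The highest of the group was cnp20, of the CENP-T protein that links inner and outer layers, with spots at 0.13 and 0.24 on replicate 1 and 0.25 and 0.17 on replicate 2 (mean 0.20 ± 0.018). The lowest was cnp3, of the CENP-C protein that binds CENP-A nucleosomes, with spots at -0.57 and -0.76 on replicate 1 and 0.20 and 0.092 on replicate 2 (mean -0.26 ± 0.57). Its arrays thus disagreed in sign. The loading factors for Cnp1 also disagreed: mis18 had -0.19 and 0.15, and mis16, whose histone-binding WD-repeat protein is shared with other chromatin complexes, had -0.29 and 0.11. In a bulk culture, fewer cells at the stage that expresses a gene and less RNA per cell cannot be told apart.

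The inner kinetochore group around Mis6, Sim4 and Mal2 had 11 measured genes of 12, with 1 that rose and 10 that did not pass. It spanned the whole range of the 32 genes, from fta6 at 1.55 down to fta5 at -0.54. After fta6 came sim4, of the CENP-K protein, with 0.61 and 0.62 on the spots of replicate 1 and 0.089 and 0.47 on those of replicate 2. Its mean of 0.45 ± 0.23 was above 0 on both arrays and did not pass (adjusted p = 0.756, interval -0.12 to 1.01).

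The CENP-L gene fta1 was also above 0 on both arrays (0.64 and 0.10), as was the CENP-P gene fta2 (0.069 and 0.29). Below 0 on both were fta4 (-0.23 and -0.18) and fta5. The spots of fta5 gave -0.42 and -0.41 on replicate 1 and -0.50 and -0.84 on replicate 2, with a mean of -0.54 ± 0.18 (adjusted p = 0.696, interval -1.10 to 0.016). Its current name places it in a family of flocculin-like cell surface proteins. Its older name is that of the Fta group found bound to Sim4 and Mal2. All 4 spots of fta5 lay below 0, at less than 2-fold.

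For 5 inner kinetochore genes the arrays pointed in opposite directions. The CENP-Q gene fta7 had -0.16 on replicate 1 and 0.93 on replicate 2. The CENP-H gene fta3 went the other way, with 0.28 and -0.87. Smaller gaps of the same kind were those of mis17 (-0.25 and 0.56), the CENP-O gene mal2 (0.48 and -0.11) and the CENP-I gene mis6 (0.30 and -0.030). No direction can be read for any of these 5.

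In the Mis12 and Spc7 group, the platform that joins inner and outer layers, 6 genes were measured and 0 passed. The lowest was mis14, of the Mis12 complex, with spots at -0.46 and -0.38 on replicate 1 and -0.41 and -0.32 on replicate 2. Its mean of -0.39 ± 0.038 had one of the narrowest spreads between arrays among the 32 genes, and still did not pass (adjusted p = 0.778). The highest was nnf1, another Mis12 complex gene, whose spots gave -0.042 and 0.016 on replicate 1 and 0.46 and 0.68 on replicate 2 (mean 0.28 ± 0.41). The difference in nnf1 was thus seen on a single array. The Mis12 complex gene mis13 had 0.11 and 0.17, and sos7, whose product binds Spc7, had 0.0074 and 0.074. The values of sos7 near 0 average duplicate spots that disagreed, at -0.28 and 0.30 on replicate 1 and 0.69 and -0.54 on replicate 2. For mis12 itself (-0.54 and 0.66) and for spc7 (0.59 and -0.28) the arrays opposed each other.

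The Ndc80 complex is the rod that contacts the microtubule, and its 4 genes encode proteins that work as a single tetramer. Their transcripts did not share a direction here, and 0 of 4 passed. The gene spc24 was lower on both arrays: its spots gave -0.61 and -0.32 on replicate 1 and -0.27 and -0.81 on replicate 2. Its mean was -0.50 ± 0.055 (adjusted p = 0.717, interval -1.05 to 0.052). Its partner gene spc25 had 0.090 and 0.23. The genes of the other, microtubule-facing dimer each split by array, ndc80 with 0.80 and -0.091 and nuf2 with 0.55 and -0.23. The mean of ndc80, 0.36 ± 0.63, was the highest of the complex and rested on replicate 1, where its spots gave 0.55 and 1.05 against -0.24 and 0.059 on replicate 2.

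The DASH complex, which helps kinetochores hold on to microtubule ends, had 6 measured genes of 8, and 0 passed. The highest mean was that of duo1, with spots at 0.039 and 0.35 on replicate 1 and 0.31 and 0.50 on replicate 2 (mean 0.30 ± 0.15, adjusted p = 0.834). A wild-type spot of duo1 on replicate 1 was not well above background. The lowest was dad2, with spots at -0.82 and -0.29 on replicate 1 and -0.39 and -0.095 on replicate 2 (mean -0.40 ± 0.22, adjusted p = 0.778). Below 0 on both arrays was also ask1 (-0.10 and -0.42).

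The other DASH genes split by array. The gap was widest for dad1, with -0.68 and 0.82, which gave a mean of 0.070 ± 1.06, the largest SD of the 32 genes. The values of dam1 were 0.43 and -0.082. Those of spc34 were 0.19 and -0.73, and the low value rested on a spot at -1.29 whose pob3 signal was not well above background, beside a spot at -0.17. With both channels required above background spc34 had a mean of 0.0097.

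As a list, the 32 genes had a median of 0.15, with 0.079 on replicate 1 and 0.11 on replicate 2, beside 0.018 over all genes measured. Without fta6 the median of the 31 others was 0.14. Above 0 on both arrays were 10 genes (31.2%), against 26.8% of all genes. Below 0 on both were 6 (18.8%), against 25.7%. The remaining 16 split by array. Of these, 8 were lower on replicate 1 and higher on replicate 2 (25%, against 24.3%), and 8 the reverse (25%, against 23.1%). The first 8 thus leaned to Cy3 on both arrays in the normalised ratios, though not in raw brightness. A mean of at least 0.5 in size with the same sign on both arrays was reached by 3 genes, fta6, fta5 and spc24, or 9.38%, against 10.9% of all genes. The means of the 32 genes had an SD of 0.38, against 0.36 over all genes.

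**Figure D2:**
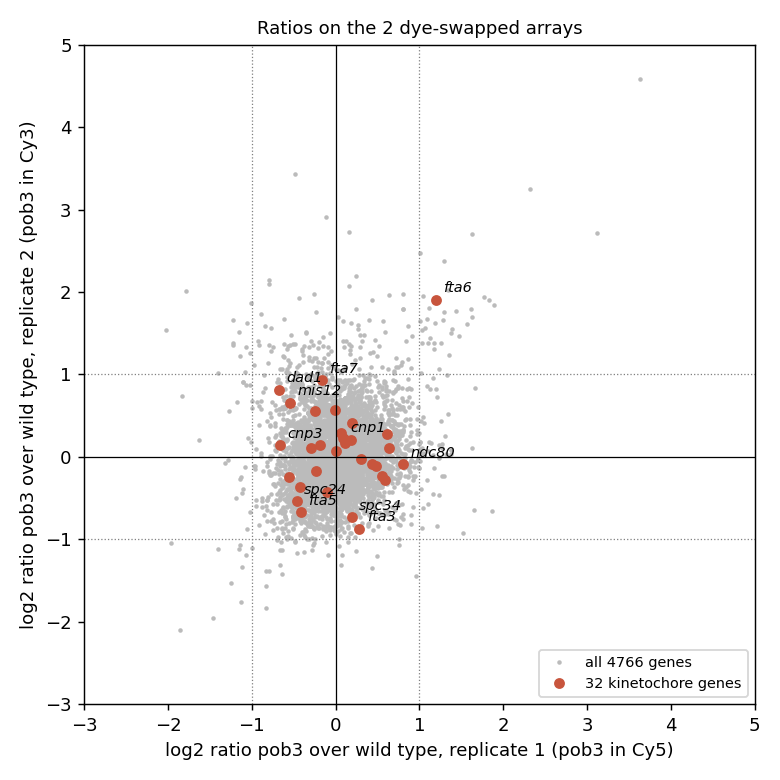
Log2 ratio of pob3 over wild type on replicate 1 (x axis) and replicate 2 (y axis) for all 4766 genes (grey) and the 32 kinetochore genes (red), with dotted lines at 2-fold. Of the red points, fta6 lies at 1.19 and 1.91 and is the one past 2-fold on both arrays, and 16 lie in the quadrants where the arrays oppose each other.

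The spread behind these values came more from the arrays than from the spots. The median gap between duplicate spots of a kinetochore gene was 0.20 on replicate 1 and 0.24 on replicate 2, and that between arrays 0.37, as for all genes (0.37). Duplicate spots correlated at 0.813 and 0.768 over the 32 genes. The array values correlated at 0.160 over the 32 and at -0.166 over the 31 without fta6, a description over genes that share both arrays. Of the 128 spots of these genes 128 were kept, 3 were above background in a single channel (of duo1, sos7 and spc34), and 0 were saturated.

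The intervals show what sizes of change these arrays leave room for under limma's pooled spread. They reached 0.55 to 0.75 on either side of the mean. They rest mostly on a spread pooled over all genes (9.71 prior against 1 residual degree of freedom). A gene whose arrays differ widely can thus still lie within 2-fold, as dad1 did, with arrays at -0.68 and 0.82 and an interval of -0.68 to 0.82. If the arrays are technical, the spread between cultures is not in these intervals. For 27 of the 32 genes (84.4%) the interval lay within 2-fold in both directions, against 80.9% of all genes. The 5 others were fta6, which rose, and sim4 (up to 1.01), fta7 (up to 1.05), spc24 (down to -1.05) and fta5 (down to -1.10). For the genes that did not pass, equal levels are therefore not shown, and changes inside these intervals remain possible.

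**Figure D3:**
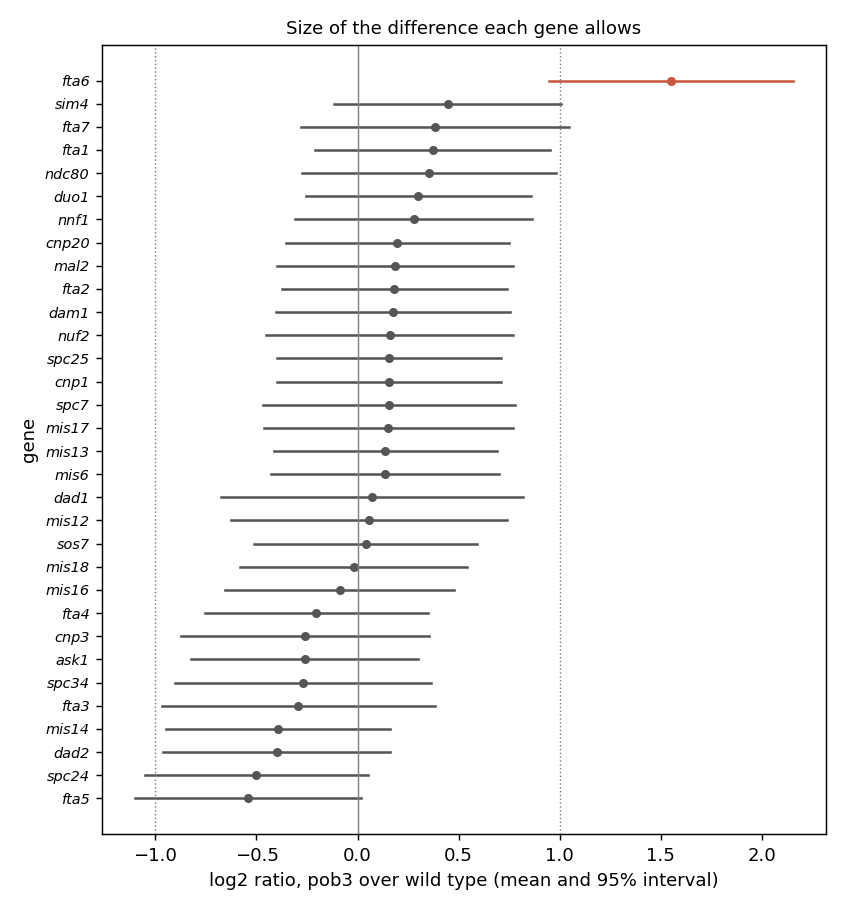
Mean log2 ratio of pob3 over wild type (points) with limma's 95% interval (lines) for the 32 kinetochore genes, ordered by mean, with dotted lines at 2-fold and the gene past the threshold in red. The interval of fta6 runs from 0.95 to 2.15, and those of 27 genes lie between the dotted lines.

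Genes with roles related to kinetochores, chromatin, cohesion or microtubules were looked at in 6 further lists with 44 measured genes of 49. By limma 0 of the 44 passed, against 25 of 4766 genes (0.525%). At an unadjusted p under 0.05 there were 2 of 44, against 353 of 4766 (7.41%). Spindle checkpoint genes, which delay anaphase until chromosomes are attached, had means from -0.18 to 0.13 over 7 genes. Passenger complex, shugoshin and monopolin genes, which correct attachments and protect cohesion, had means from -0.32 to 0.25 over 7 of 8 genes. Factors that load CENP-A, CENP-B-like proteins and further chromatin and inner proteins had means from -0.52 to 0.42 over 11 of 12. The lowest was the histone chaperone gene hip1, at -0.27 and -0.77. The highest was mhf1, whose arrays opposed each other, at -0.89 and 1.73. A further DASH gene, dad5, had -0.13 and -0.065, and dad4 was not analysed here. Cohesin and its loader had means from -0.21 to 0.66 over 10 of 11 genes, the highest being wpl1, of a cohesin release factor, at 0.20 and 1.12 (adjusted p = 0.662). A list of microtubule-associated proteins, not all of them specific to kinetochores, had means from -0.72 to 0.36 over 8 of 9. Its lowest was the kinesin gene tea2 at -0.77 and -0.67 (adjusted p = 0.484), and a role of tea2 at kinetochores was not tested. The genes wpl1 and tea2 were named after their values were seen, as those with an unadjusted p under 0.05. So were hip1 and mhf1, as the ends of their list. The medians of these lists lay between -0.096 and 0.15, beside 0.18 for the inner kinetochore, -0.020 for centromeric chromatin, 0.098 for Mis12 and Spc7, 0.16 for Ndc80 and -0.096 for DASH.

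**Figure D4:**
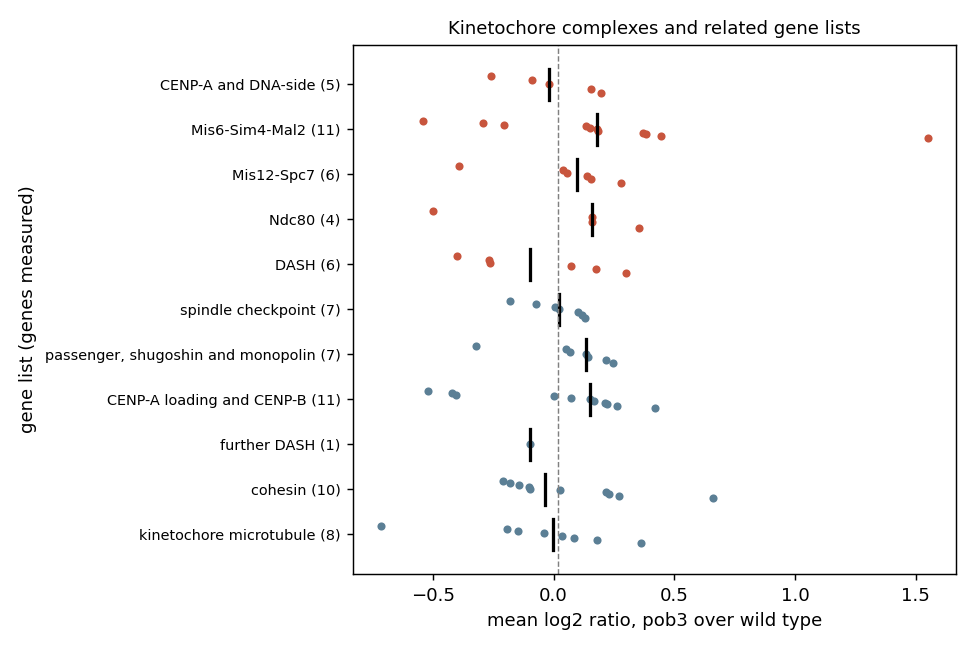
Mean log2 ratio of pob3 over wild type (x axis) for each measured gene of 5 kinetochore groups (red) and 6 further lists (blue), with a black bar at the list's median and a dashed line at the median of all genes. The groups overlap around 0, and fta6 at 1.55 stands apart.

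**Figure D5:**
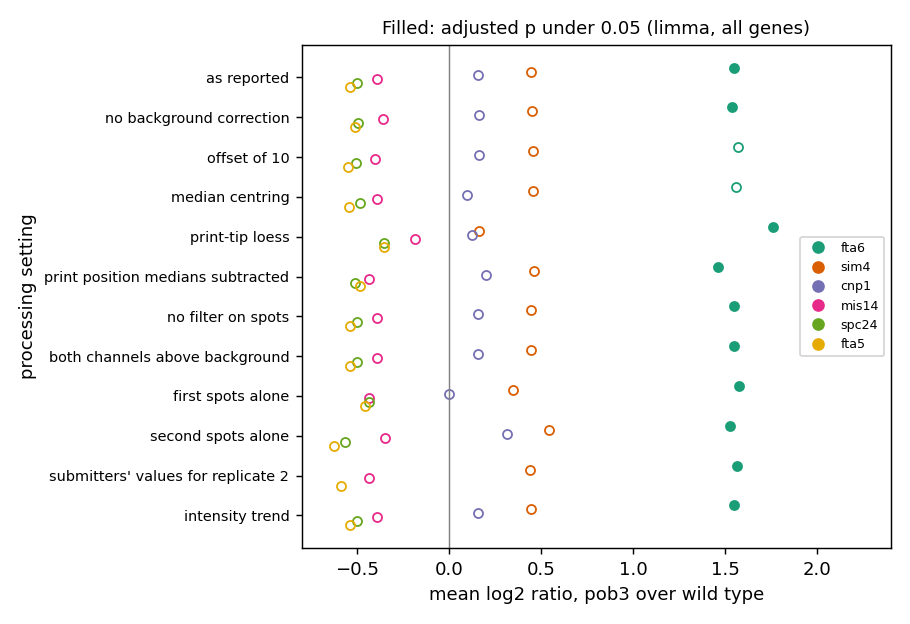
Mean log2 ratio of pob3 over wild type (x axis) of 6 kinetochore genes under the reported processing and 11 alternatives (y axis), filled where the adjusted p was under 0.05. The ratio of fta6 lay between 1.46 and 1.76 throughout and was not past the threshold with an offset of 10 and with median centring; 2 of the 6 genes, cnp1 and spc24, have no value with the submitters' ratios.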

How the data were processed

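The deposited scanner files hold intensities, given per the file headers as medians for a spot and for the area around it, in Cy3 and Cy5; duplicate spots are in separate files of 5760 spots. The authors' own normalisation was Lowess in GeneSpring, with a 2-fold cut-off, per the design text of the series. Their deposited log2 ratios for replicate 2 correlated at 0.977 with those computed here; for replicate 1 they covered 0 gene spots, so scale, centring and direction stay unknown. Medians of these columns were -0.12 (replicate 1) and -0.044 (replicate 2).

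Background was corrected by normexp (offset 50) and each spot file normalised by loess with weight 0 for control spots (limma 3.58.1, R 4.3.3). Ratios were turned to pob3 over wild type by the labelled dyes. Kept spots had a quality flag of 0 and at least 1 channel above background: in Cy3 by more than 2 background SDs, in Cy5 by a signal more than 1.5 times the background. The SD column names no channel. Spots were averaged per array. The test was lmFit and eBayes of the mean against 0, on 1 residual degree of freedom (9.71 prior), checked on simulated data. The simulated spread was drawn from this same fit, so the check could not test that spread. Names came from a reference gene table (assembly ASM294v3), which matched 4611 of 4868 names to 1 locus.

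Members and lists were chosen with earlier results of these data known. Spot values are given for cnp1, genes past the threshold, genes with means of 0.5 or more in size and the same sign on both arrays, the extremes of each group, and, chosen after their values were seen, sim4, sos7 and spc34. The array name abp1 matches several loci and hos2 now names a histone deacetylase, so both were left out of the further lists. Alternatives covered background, normalisation, print position, spot filter, duplicate spots, prior, thresholds, the submitters' ratios and single arrays.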

Additional observations from a re-analysis of the deposited data

How the results depend on the processing

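With 2 arrays on a spread pooled over genes, small changes cannot be told from 0. Ratios of kinetochore genes were compared under 11 alternatives, with single arrays left out and 21 genes measured in the submitters' values. Of these ratios, 321 kept their direction and side of the threshold, 18 turned sign and 2 lost a call. Signs were kept by 23 of 32 genes in the alternatives that gave them a value. Part of this was fixed in advance. All 128 spots had been kept, so dropping the spot filter left each ratio as reported, as did an intensity trend, which alters the prior alone. Requiring both channels changed the ratios of duo1, sos7 and spc34 alone. On single arrays the 16 genes whose arrays opposed each other take either sign. The ratio of fta6 lost its call with an offset of 10 (1.57) and median centring (1.56), which left 0 kinetochore genes past the threshold; the cause was not tested. Over all genes, 25 of 4766 passed as reported. Changes of background handling gave 45 (no correction) and 11 (offset of 10). Changes of normalisation gave 0 under median centring (limma, 174 at an unadjusted p under 0.05), 56 under print-tip loess and 49 once print position medians were subtracted. Fewer genes were tested in some settings: requiring both channels gave 39 of 4703, the first spots 49 of 4722 and the second spots 53 of 4729. The submitters' ratios for replicate 2 gave 68 of 3133. An intensity trend gave 38 and an adjusted p of 0.10 gave 52, each of 4766. The pob3 ratio, past an adjusted p of 0.10 as reported, was also past 0.05 with uncorrected background and first spots (-1.19 each), print-tip loess (-1.48), subtracted position medians (-1.20), both channels or an intensity trend (-1.26), second spots (-1.32) and submitters' ratios (-1.37).

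The median of 0.15 was 0.054 with print-tip loess, 0.089 with the first spots alone and 0.11 with the submitters' values (21 genes), and 0.079 to 0.11 on a single array. Signs turned, none past the threshold, for fta2 (-0.10), fta3 (0.011), mis12 (-0.059) and dad1 (-0.058) with print-tip loess. With the first spots alone they turned for mis16 (0.11), fta2 (-0.039), mis17 (-0.021), dad1 (-0.025) and spc34 (0.0047). With the second spots alone they turned for mis18 (0.12), mis12 (-0.015) and sos7 (-0.12). With both channels above background they turned for sos7 (-0.10) and spc34 (0.0097). The sign of sos7 also turned on uncorrected background (-0.051), at an offset of 10 (-0.026), after subtraction of position medians (-0.028) and in the submitters' values (-0.017). Counts of calls could not be had from single arrays. No paired analysis was possible because each array holds both RNAs and its ratio already pairs them.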
